A study of Saccharomyces cerevisiae with 16 samples.

Results

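The prospore membrane genes SSP1, ADY3, DON1, SPO20, SSO1, SPO14, SMA2, SPO19, SPO71 and SPO73 were chosen by name for their roles in the growth and the leading edge of that membrane. All 10 were found among the 6679 genes of the deposited table. They were followed in SK1 budding yeast, a strain prized because its cells enter meiosis quickly and together. Cells were either WT or lacked the open reading frame of DBP1, a DEAD-box RNA helicase gene, which had been removed with Cas9 and without leaving a marker. Both strains were moved to sporulation medium and collected after 3 h or 6 h, with 100 µM cycloheximide, which halts elongating ribosomes, given for 1 min beforehand. For each strain and time, ribosome footprints (28 to 31 nt) and mRNA fragments (50 nt long) were sequenced from 2 samples. This gave 16 libraries in 8 groups, with WT replicates numbered 3 and 4 and deletion replicates numbered 2 and 4. The labels do not say whether replicates were separate cultures, and the p-values rest on the spread between libraries, which may be purely technical. They do not say how many clones of the deletion were used.

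During the second meiotic division, yeast cells build a new membrane around each haploid nucleus. It starts at the meiotic outer plaque, a modified cytoplasmic face of the spindle pole body, where secretory vesicles dock and fuse to form the prospore membrane. The membrane then grows around the nucleus behind a protein ring at its open mouth, the leading edge coat, and closes to make the spore. Ssp1, Ady3 and Don1 are proteins of that coat. Spo20 and Sso1 are SNARE proteins of vesicle fusion, and Spo14 is the phospholipase D that makes phosphatidic acid, a lipid that Spo20 binds. Spo71, Spo73 and Sma2 are needed for the membrane to extend to its full size, and Spo19 is a GPI-anchored protein of the prospore membrane found as a high-copy suppressor of spo20 mutations.

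Values are RPKM, reads scaled to gene length and to library depth, so levels of genes can be compared per length. Whole reads could be recovered from the deposited values, and their totals over genes were between 4578410 and 6965130 in footprint libraries and between 5644990 and 9144994 in mRNA libraries. DBP1 itself, as a check of the labels, was at 147 to 429 RPKM in WT footprints and at 0.449 to 1.12 RPKM in deletion footprints. In mRNA it was at 32.3 to 161 RPKM in WT, and at most at 1.25 RPKM in deletion libraries. The mRNA library labelled deletion 3 h replicate 2 had a profile like that of 6 h libraries, as described below for the 10 genes. It is therefore shown apart and was left out of every comparison, and the deletion at 3 h has 1 mRNA library, replicate 4. A change was called where its adjusted p was under 0.05 in limma on log2(RPKM + 1) with Benjamini-Hochberg adjustment over all genes tested. Genes were tested where their libraries of a kind averaged 5 RPKM or more, and all 10 passed in footprints and in mRNA. SMA2 and SPO20 passed it in footprints through their 6 h libraries, whereas 8 of the 10 genes were also above 5 RPKM on average at 3 h in both strains.

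**Figure D1:**
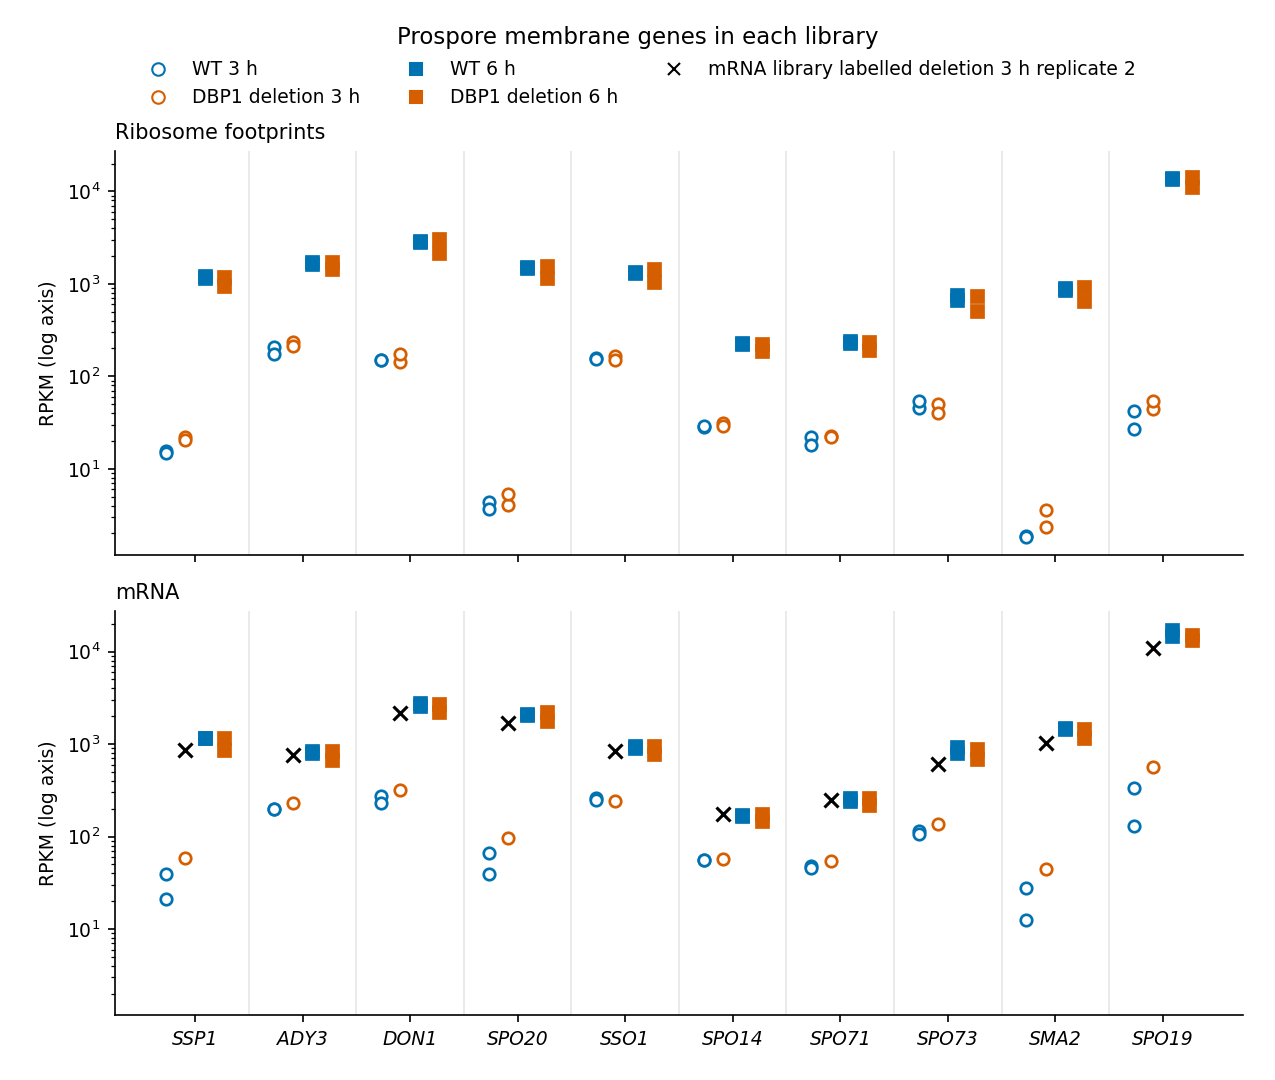
RPKM of the 10 genes (log axis) in every library, footprints above and mRNA below. Open circles are 3 h and filled squares 6 h, blue is WT and orange the DBP1 deletion, and each mark is 1 library. The black cross is the mRNA library labelled deletion 3 h replicate 2. The 6 h libraries lie above the 3 h libraries of the same kind for each gene, and the cross lies near the 6 h libraries.

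Footprints on all 10 genes rose between 3 h and 6 h in WT, and their mRNA rose as well. The rises ran from 7.88-fold in footprints for SPO14 to 474-fold for SMA2, as ratios of mean RPKM. In mRNA they ran from 3.07-fold for SPO14 to 72.5-fold for SMA2. Footprints rose by a larger factor than mRNA for each of the 10 genes.

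SSP1 encodes the coat subunit that the other leading edge proteins need for their place at the membrane's mouth. Its footprints were at 15.4 and 14.8 RPKM in the WT 3 h libraries (replicates 3 and 4, the order kept for WT below) and at 1144 and 1213 RPKM at 6 h. Its mRNA went from 39.8 and 21.2 RPKM to 1178 and 1169 RPKM. In the deletion, footprints were at 21.9 and 20.6 RPKM at 3 h (replicates 2 and 4, the order kept for the deletion below) and at 954 and 1199 RPKM at 6 h. The 3 h and 6 h libraries did not overlap in either strain. The log2 change in WT was 6.19 (SE 0.14) in footprints and 5.29 (SE 0.28) in mRNA, with limma adjusted p of 2e-08 and 6.5e-06.

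ADY3, a coiled-coil component of the coat that is also needed for spore wall formation, started from a far higher level. Its WT footprints were at 208 and 176 RPKM at 3 h and at 1707 and 1641 RPKM at 6 h. The mRNA was at 198 and 199 RPKM, then at 801 and 835 RPKM. Deletion footprints were at 234 and 214 RPKM at 3 h and at 1437 and 1741 RPKM at 6 h. Of the 10 genes, ADY3 had the highest footprint level at 3 h, with a log2 change of 3.12 (SE 0.15) in footprints and 2.04 (SE 0.14) in mRNA in WT. Both changes were called, at adjusted p of 1.1e-06 and 1.2e-05.

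DON1, a further coat protein, was at 149 and 151 RPKM in WT footprints at 3 h and at 2923 and 2830 RPKM at 6 h. Its mRNA rose from 272 and 232 RPKM to 2614 and 2776 RPKM. Deletion footprints were at 144 and 175 RPKM, then at 2152 and 3071 RPKM. The log2 change in WT was 4.25 (SE 0.19) in footprints and 3.42 (SE 0.16) in mRNA (adjusted p 6e-07 and 5.3e-06). Of the 3 coat genes, SSP1 was the lowest in WT footprints at each time, and DON1 passed ADY3 between 3 h and 6 h.

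Among the fusion genes, SPO20 had few footprints at 3 h and many at 6 h. SPO20 is the sporulation-specific relative of SEC9, the SNAP-25 family SNARE of growing cells. Its footprints were at 4.43 and 3.71 RPKM in WT and at 4.05 and 5.34 RPKM in the deletion at 3 h, which are 23, 26, 32 and 32 reads. At 6 h they were at 1536 and 1480 RPKM in WT and at 1159 and 1554 RPKM in the deletion. Its WT mRNA was already at 66.8 and 39.1 RPKM at 3 h and reached 2083 and 2108 RPKM at 6 h. Footprints changed by 8.22 on the log2 scale in WT (SE 0.18, adjusted p 1.7e-08) and mRNA by 5.33 (SE 0.25, adjusted p 5.3e-06).

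SSO1 encodes a plasma membrane syntaxin that sporulation requires, while its paralogue SSO2 serves growth but cannot replace it in sporulation. SSO1 footprints in WT were at 157 and 153 RPKM at 3 h and at 1330 and 1310 RPKM at 6 h. Its mRNA went from 259 and 249 RPKM to 917 and 955 RPKM. The changes were 3.08 in footprints (SE 0.17, adjusted p 2.1e-06) and 1.88 in mRNA (SE 0.14, adjusted p 1.5e-05) on the log2 scale. SSO2 moved the other way, with WT footprints between 57.9 and 69.9 RPKM at 3 h and between 17.6 and 21.2 RPKM at 6 h. Its log2 change was -1.67 in footprints (SE 0.37, adjusted p 0.003) and -1.93 in mRNA (SE 0.40, adjusted p 0.0023). SEC9 footprints were between 46.4 and 50.1 RPKM at 3 h and between 48.8 and 51.3 RPKM at 6 h, a log2 change of 0.05 (SE 0.14, adjusted p 0.74). Its mRNA changed by -0.45 (SE 0.13, adjusted p 0.012). The order of the paralogues at 6 h was thus SSO1 over SSO2 and SPO20 over SEC9, with no overlap between libraries. Scaling matters for the growth partners: after rescaling by the median ratio, SSO2 was at -0.72 in footprints and no longer called (adjusted p 0.095), and SEC9 was called higher at 1.01 (adjusted p 0.00073). In rescaled mRNA, SSO2 was at -0.6 and no longer called (limma adjusted p 0.14). SEC9 mRNA turned from called lower to called higher, at 0.92 (limma adjusted p 0.00051). The sources used here do not give how reads shared by near-identical copies were assigned, and SSO1 and SSO2 may share some.

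**Figure D2:**
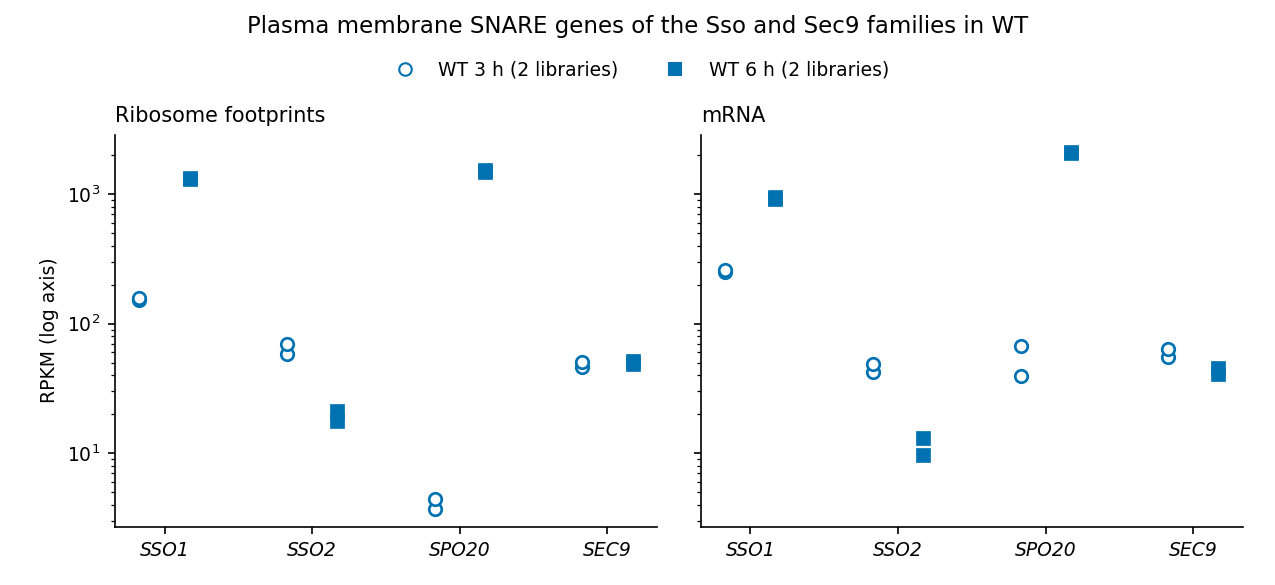
RPKM (log axis) of the SNARE genes SSO1 and SPO20 beside their paralogues SSO2 and SEC9 in WT, footprints left and mRNA right. Open circles are the 3 h libraries and filled squares the 6 h libraries. SSO1 and SPO20 are higher at 6 h, SSO2 is lower, and SEC9 footprints stay between 46.4 and 51.3 RPKM.

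SPO14 had the smallest rise of the 10 genes in each kind of library. WT footprints were at 28.5 and 29.3 RPKM at 3 h and at 223 and 232 RPKM at 6 h, and the mRNA went from 55.3 RPKM in both libraries to 168 and 171 RPKM. These are log2 changes of 2.94 (SE 0.14, adjusted p 8.5e-07) and 1.6 (SE 0.12, adjusted p 1.6e-05). In the deletion, its footprints were at 31.6 and 28.8 RPKM at 3 h and at 187 and 223 RPKM at 6 h.

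SPO71 encodes a protein with pleckstrin homology domains that takes part in bringing the lipid transfer protein Vps13 to the prospore membrane, and SPO73 encodes a dysferlin domain protein that acts with it. SPO71 footprints in WT went from 22.3 and 18.3 RPKM to 239 and 230 RPKM, and its mRNA from 47.8 and 46.1 RPKM to 244 and 260 RPKM. SPO73 footprints went from 45.8 and 54.0 RPKM to 669 and 749 RPKM, and its mRNA from 115 and 106 RPKM to 931 and 805 RPKM. The footprint changes were 3.48 (SE 0.15) and 3.80 (SE 0.21) on the log2 scale, and the mRNA changes 2.40 (SE 0.13) and 2.96 (SE 0.15). All 4 were called, the highest adjusted p being 6.5e-06 in mRNA and 2.1e-06 in footprints.

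SMA2, a membrane protein gene, had the fewest footprint reads at 3 h. It was at 1.87 and 1.85 RPKM in WT (9 and 12 reads) and at 2.32 and 3.61 RPKM in the deletion (17 and 20 reads). The 95% counting interval of the WT replicate 3 value ran from 0.856 to 3.55 RPKM and that of deletion replicate 4 from 2.2 to 5.57 RPKM. At 6 h it was at 903 and 862 RPKM in WT and at 649 and 915 RPKM in the deletion, while its WT mRNA went from 27.9 and 12.5 RPKM to 1483 and 1450 RPKM. The log2 change in WT footprints was 8.27 (SE 0.21, adjusted p 2.4e-08). With a pseudocount of 5 RPKM the same change was 7.02, since the pseudocount weighs on low values.

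SPO19 was by far the most abundant of the 10 genes at 6 h. Its WT footprints were at 42.1 and 27.3 RPKM at 3 h and at 13478 and 13836 RPKM at 6 h. The mRNA was at 339 and 130 RPKM, then at 17211 and 14938 RPKM. In the deletion, footprints were at 43.9 and 54.2 RPKM at 3 h and at 11080 and 14132 RPKM at 6 h. Its footprint change of 8.61 (SE 0.22, adjusted p 2.7e-08) was the largest of the 10 on the log2 scale, and its mRNA change was 6.25 (SE 0.40, adjusted p 9.8e-06).

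The order of the 10 genes changed between the times. At 3 h in WT footprints the order from the highest was ADY3, SSO1, DON1, SPO73, SPO19, SPO14, SPO71, SSP1, SPO20 and SMA2. By library values, only SPO19 and SPO14 overlapped as neighbours. The 95% counting intervals of some other neighbours overlapped too, as for SSO1 and DON1, whose means were 1.03-fold apart. At 6 h it was SPO19, DON1, ADY3, SPO20, SSO1, SSP1, SMA2, SPO73, SPO71 and SPO14, with an overlap only between SPO71 and SPO14. SPO20, next to the lowest at 3 h, was above SSO1 at 6 h, and SPO19 stood 4.75-fold above DON1 at 6 h. In mRNA at 3 h, 6 of the 9 pairs of neighbours overlapped, and SSO1, DON1 and SPO19, the highest, were each within 1.07-fold of the next of them.

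In WT, 10 of the 10 genes were called higher at 6 h in footprints, where 20.1% of all 5312 genes tested were called higher and 63.3% lower. SMA2 and SPO20 passed the filter through the 6 h libraries, so a rise was favoured for them in advance. The other 8 also averaged above 5 RPKM at 3 h, and each of these was called higher. In mRNA, 10 of 10 were called higher as well, against 16.4% of 5720 genes higher and 72.9% lower. Their median log2 change was 4.03 in footprints and 3.19 in mRNA, beside medians of -0.96 and -1.38 over all genes tested. Because of those shifts, each footprint change given above is 0.96 larger when taken relative to the median gene. The smallest is then 3.89, for SPO14. After rescaling the libraries by the median ratio, 1934 genes were called higher and 1681 lower in footprints, in place of 1068 and 3362, and in mRNA 2198 and 2028 in place of 940 and 4170. All 10 genes were called higher under each alternative setting run. In bulk samples such as these, fewer cells at a stage and less RNA per cell cannot be told apart.

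The deletion strain showed the same direction. Footprints of 10 of the 10 genes were called higher at 6 h than at 3 h, beside 19.3% of all genes higher and 65.1% lower. The same limit of the filter holds for SMA2 and SPO20 here. The log2 changes ran from 2.72 for SPO14 to 7.97 for SPO19, with a median of 3.87. In mRNA 10 of 10 were called higher, beside 14.8% higher and 71.9% lower, with changes from 1.49 for SPO14 to 4.84 for SMA2. That mRNA comparison rests on 1 library at 3 h, whose spread was taken to be like that of the other groups. With the library labelled deletion 3 h replicate 2 put back, none of the 10 was called, the adjusted p being 0.29 to 0.33. The split of calls over all genes also moved with rescaling here, to 1864 higher and 1636 lower in footprints from 1024 and 3456, and to 1987 and 1744 in mRNA from 849 and 4110.

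**Figure D3:**
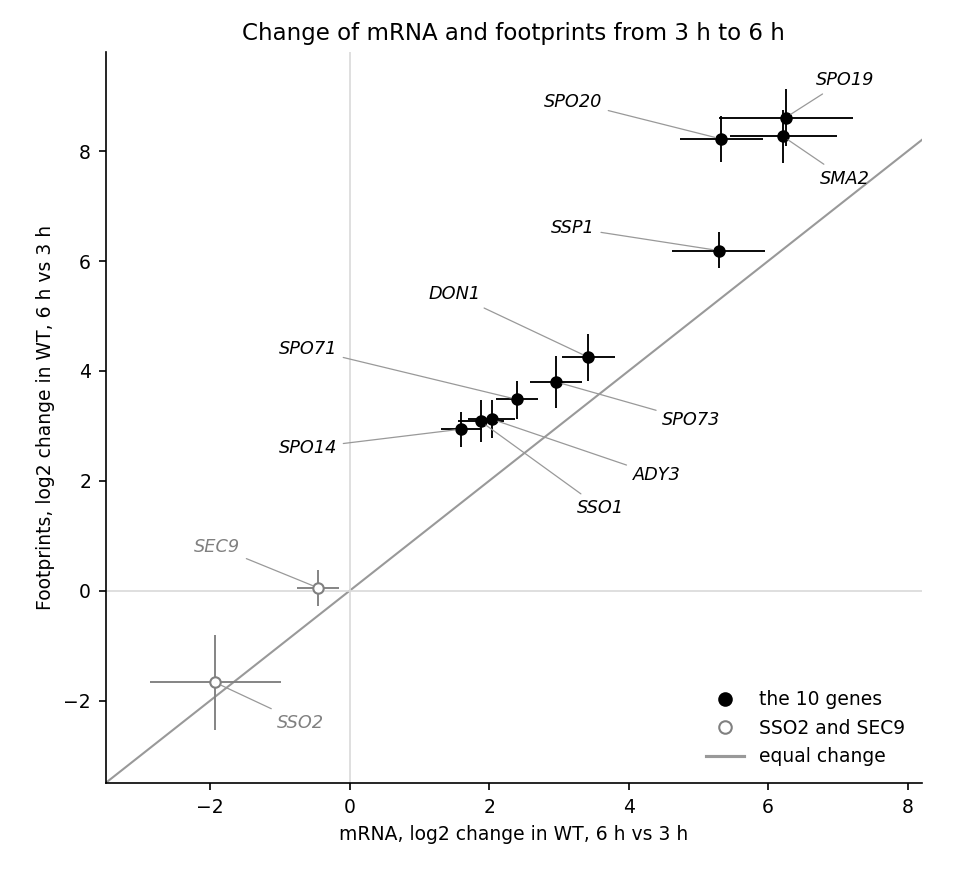
Log2 change from 3 h to 6 h in WT, mRNA on the x axis and footprints on the y axis, with 95% intervals from limma. Black points are the 10 genes, open grey points are SSO2 and SEC9, and the grey line marks equal change. The 10 genes lie above the line, from SPO14 at 1.6 and 2.94 to SPO19 at 6.25 and 8.61.

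The ratio of footprint to mRNA RPKM in a sample, a measure of translation efficiency, was low for several of these genes at 3 h and higher at 6 h. SPO20 had a ratio of 0.0663 and 0.0951 in WT at 3 h and of 0.737 and 0.702 at 6 h. For SMA2 it was 0.067 and 0.148, then 0.609 and 0.595. For SPO19 it was 0.124 and 0.210, then 0.783 and 0.926. The median ratio over the 5291 genes tested in both kinds was 0.767 and 0.718 at 3 h and 1.02 and 1.03 at 6 h.

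The other 7 genes began closer to the median gene. ADY3 had the highest ratio of the 10 in each WT sample, at 1.05 and 0.882 at 3 h and at 2.13 and 1.97 at 6 h. SSO1 went from 0.605 and 0.614 to 1.45 and 1.37, and SPO14 from 0.515 and 0.530 to 1.33 and 1.35, so that both crossed from below the median gene to above it. DON1 went from 0.548 and 0.653 to 1.12 and 1.02, SPO71 from 0.466 and 0.396 to 0.983 and 0.885, and SPO73 from 0.4 and 0.508 to 0.718 and 0.93. SSP1 was spread widely at 3 h, at 0.387 and 0.697, and reached 0.97 and 1.04. The 3 h and 6 h ratios did not overlap for any of the 10 in WT. The median over all genes did not overlap either, at 0.767 and 0.718 and then 1.02 and 1.03. The share of all genes without overlap was not computed. In the deletion, the single 3 h sample with a usable mRNA library had ratios of 0.0559 for SPO20, 0.0816 for SMA2 and 0.0948 for SPO19, and the 6 h samples had 0.656 to 0.702, 0.559 to 0.633 and 0.83 to 0.923.

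**Figure D4:**
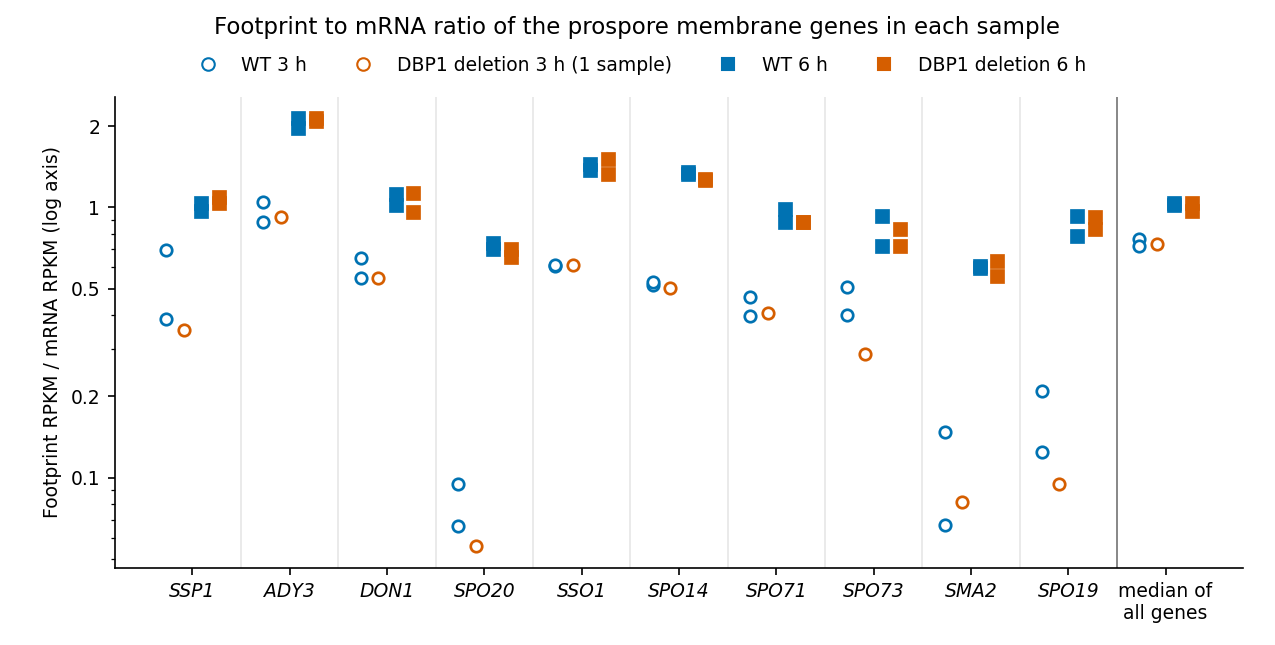
Footprint RPKM divided by mRNA RPKM (log axis) for the 10 genes in each sample, with the median of all genes at the right. Open circles are 3 h and filled squares 6 h, blue is WT and orange the DBP1 deletion, which has 1 sample at 3 h. SPO20, SMA2 and SPO19 lie at or below 0.210 at 3 h. The 6 h values of each gene lie above its 3 h values, as do those of the median of all genes.

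In 1 model of footprints and mRNA together, the WT change in translation efficiency was called higher for 9 of the 10 genes, beside 30.2% of all genes higher and 2.48% lower. SPO20 had the largest change, 2.89 on the log2 scale (SE 0.33, adjusted p 0.00036). SPO19 followed at 2.36 (SE 0.51, adjusted p 0.0079) and SMA2 at 2.06 (SE 0.43, adjusted p 0.0065). SPO14 was at 1.33, SSO1 at 1.21, ADY3 at 1.09, SPO71 at 1.08, SPO73 at 0.84 and DON1 at 0.83. SSP1 was at 0.91 and was not called (adjusted p 0.060), although it was when either deletion replicate was left out (adjusted p 0.049). The median over all genes was 0.50, so DON1 and SPO73 stood 0.33 and 0.34 above the median gene and SPO20 stood 2.39 above it.

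These calls depended on the libraries and the scaling, and the size of the largest change on the pseudocount. With a pseudocount of 5 RPKM 9 of the 10 were still called, and the largest change was 2.23 in place of 2.89. SPO20 and SMA2 had 9 to 26 footprint reads in the WT 3 h libraries and passed the footprint filter through their 6 h libraries. Without WT replicate 3 none of the 10 was called, the effect of SPO20 being 2.58 with an adjusted p of 0.089, and without WT replicate 4 the count was 2. Calls over all genes fell from 1729 to 18 and 57. After rescaling by the median ratio 2 of the 10 were called, SPO20 at 2.39 (adjusted p 0.0024) and SPO14 at 0.92 (adjusted p 0.036). The calls over all genes were then 126 higher and 164 lower, in place of 1598 and 131. With the mRNA library labelled deletion 3 h replicate 2 in the model the count was 0. The direction was upward for all 10 genes under each of these settings. Across the 10 genes, the mRNA change and the efficiency change had a Pearson's r of 0.65 and a Spearman's rho of 0.32, given as a description: both come from the same libraries, and the efficiency change has the mRNA change subtracted in it. Over all 5291 genes these were 0.07 and -0.06.

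The design asks what the loss of DBP1 does at each time. None of the 10 genes was called in footprints at 3 h, at 6 h, or in the difference of the deletion effect between the times. Over all genes tested, 0.0188% were called higher and 0.0188% lower at 3 h. At 6 h these were 0.0188% and 0.0377%, and for the difference between the times 0.0% in each direction. DBP1 was among those lower at both times, at -7.67 (SE 0.15, adjusted p 1.1e-07) and -6.69 (SE 0.15, adjusted p 3.4e-07). In limma at an unadjusted p under 0.05 there were 96, 139 and 78 genes in these 3 comparisons, of which 1, 0 and 1 were among the 10. In limma-voom on the recovered reads the calls over all genes were 2, 1 and 0, and none was among the 10.

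At 3 h, the deletion footprints of SSP1 were 21.9 and 20.6 RPKM against 15.4 and 14.8 RPKM in WT, a log2 change of 0.47 (95% interval 0.14 to 0.80, unadjusted p 0.011, adjusted p 1). SPO19 was at 0.51 (interval 0.00 to 1.03) and SMA2 at 0.45 (interval -0.03 to 0.93). ADY3 was at 0.23, and its deletion libraries too were above both WT libraries. Thus 4 of the 10 genes had all deletion libraries above all WT libraries at 3 h and 0 had all below, where 18.3% and 9.85% of all genes did. The other 6 changes lay between -0.15 for SPO73 and 0.16 for SPO20, and 9 of the 10 were above 0. Without deletion replicate 2 this was 7 of 10, and without deletion replicate 4 it was 8 of 10.

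At 6 h, all 10 footprint changes were below 0, from -0.22 for SPO73 to -0.08 for ADY3, and each interval included 0. The widest interval, for SPO19, ran from -0.64 to 0.39. SPO14 alone had both deletion libraries below both WT libraries, which 15.4% of all genes did, while 9.64% had both above. Deletion replicate 2 was below both WT libraries for 10 of the 10 genes, at 0.709 to 0.859 of the WT mean, as 41.9% of all genes were. Deletion replicate 4 was below both for 1 of the 10, with ratios from 0.98 to 1.09, while 43.1% of all genes were below both in it. Without replicate 2, 8 of the 10 changes were above 0, between -0.03 and 0.13, and the difference between the times was above 0 for 2 of the 10. Over all genes the median ratio to the WT mean was 0.996 for replicate 2 and 0.973 for replicate 4.

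The same replicate stood low in mRNA at 6 h. Deletion replicate 2 was below both WT mRNA libraries for 10 of the 10 genes, at 0.744 to 0.878 of the WT mean, as 32.7% of all genes were. Deletion replicate 4 was below both for 2 of the 10, while 43.0% of all genes were below both in it. Without replicate 2, 7 of the 10 mRNA changes were above 0, between -0.07 and 0.08. With it, none of the 10 was called, with changes from -0.23 for SSP1 to -0.06 for SPO71, beside 0.0175% of all genes higher and 0.0175% lower. SSP1 and SMA2 had both deletion libraries below both WT libraries, as 12.6% of all genes had, and 10.7% had both above. At an unadjusted p under 0.05, limma gave 127 genes and 0 of the 10, and limma-voom called 1 gene over the table and none of the 10.

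In mRNA at 3 h, deletion replicate 4 was above both WT libraries for 9 of the 10 genes, as 40.2% of all genes were, and below both for SSO1, as 32.2% were. SPO19 was at 572 RPKM against 339 and 130 RPKM, SMA2 at 44.2 against 27.9 and 12.5 RPKM, SSP1 at 58.4 against 39.8 and 21.2 RPKM, and SPO20 at 95.6 against 66.8 and 39.1 RPKM. The WT libraries differed among themselves on these genes by up to 2.61-fold, replicate 3 being the higher. The log2 changes were 1.44 for SPO19 (SE 0.50), 1.19 for SMA2 (SE 0.40), 0.98 for SSP1 (SE 0.34) and 0.89 for SPO20 (SE 0.30). None of the 10 was called, with adjusted p of 0.92 to 1, beside 0.0% of all genes higher and 0.0175% lower. Unadjusted, 4 of the 10 were under 0.05, among 269 of all genes. Without WT replicate 3, which left 1 library in each of the compared groups, the changes were 2.13 for SPO19 and 1.75 for SMA2. The spread in that fit came from the deletion 6 h libraries alone, so it holds no spread at 3 h.

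The order deletion replicate 4 over WT replicate 3 over WT replicate 4 held for 8 of the 10 genes in 3 h mRNA and for 19.3% of all genes. It held for 11 of 12 genes of a list on membrane shaping, septins and closure. Among the genes that spread little, SPO14 was at 55.3, 55.3 and 57.0 RPKM, and SSO1 at 259, 249 and 245 RPKM.

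**Figure D5:**
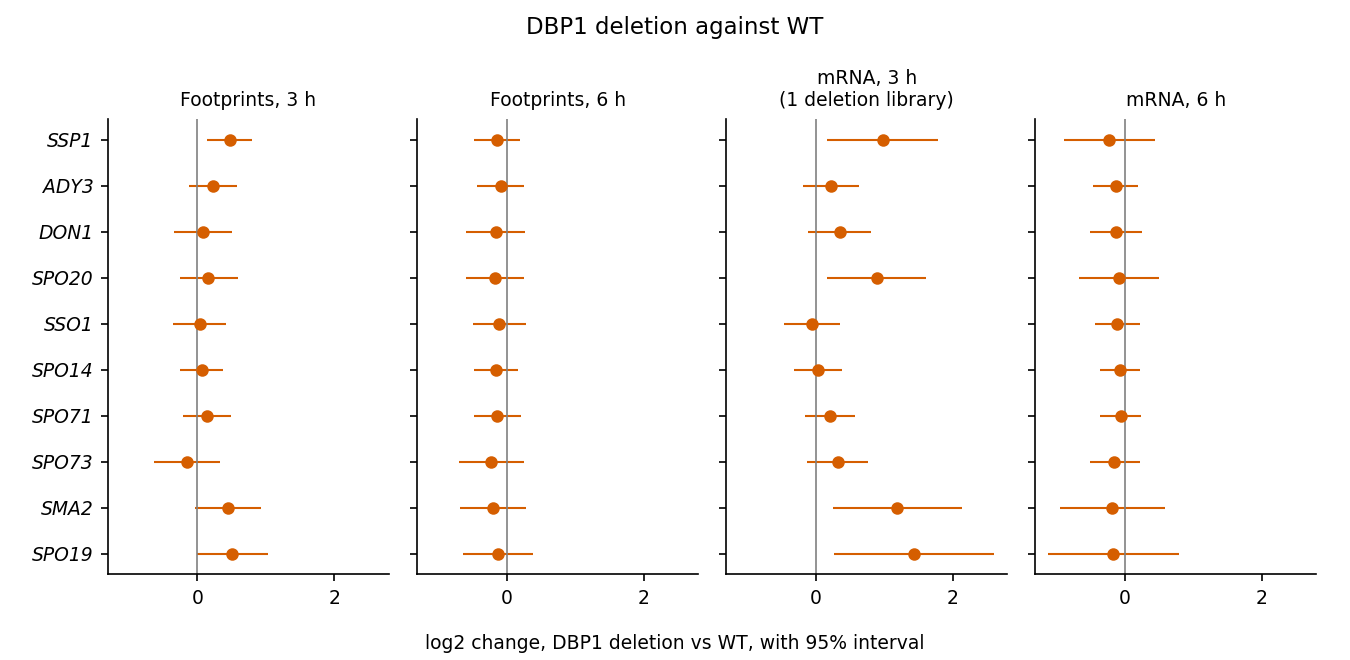
Log2 change in the DBP1 deletion against WT for the 10 genes, with 95% intervals from limma, in footprints and mRNA at 3 h and 6 h. The mRNA panel at 3 h rests on 1 deletion library. None of the changes was called, and the largest are SPO19 and SMA2 in mRNA at 3 h, at 1.44 and 1.19.

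Translation efficiency did not give a call between the strains for any of the 10. At 3 h the changes lay between -0.93 for SPO19 (95% interval -2.18 to 0.32) and 0.08 for SSO1, with 0.0189% of all genes called higher and 0.0% lower. At 6 h they lay between -0.08 and 0.09, with 0.0% higher and 0.0189% lower. The narrowest interval at 6 h, for SPO14, ran from -0.46 to 0.30. In limma at an unadjusted p under 0.05 there were 67 and 63 genes, none among the 10, and limma-voom called 1 gene at 3 h and 0 at 6 h.

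The mRNA library labelled deletion 3 h replicate 2 was above both WT 3 h mRNA libraries for 10 of the 10 genes. The share of all genes for which it was above both was not computed. SPO20 was at 1674 RPKM in it, SMA2 at 1040, SPO19 at 10982, SSP1 at 861 and DON1 at 2182 RPKM. ADY3 was at 759, SSO1 at 843, SPO73 at 614, SPO71 at 249 and SPO14 at 175 RPKM. On a scale where the WT 3 h mean is 0 and the WT 6 h mean is 1 in log2, it lay between 0.83 for SPO73 and 1.03 for SPO14. The other deletion 3 h mRNA library lay between -0.03 and 0.23, and the footprint library with the same sample number between -0.01 and 0.09 on the footprint scale. Dividing that footprint library by this mRNA library would give ratios of 0.00224 for SMA2 to 0.308 for ADY3, below those of the 3 h samples above for each gene. DBP1 was at 1.25 RPKM in it, far below the WT libraries, so the DBP1 level goes with its labelled genotype while the levels of the 10 genes go against its labelled time.

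The profiles of the 10 genes were also compared with each other. Likeness was measured as the root mean square difference of log2(RPKM + 1) over 15 libraries, each kind of library centred on its own mean. SMA2 and SPO19 were nearest to each other at 0.19, ADY3 and SSO1 at 0.10, and DON1 and SPO73 at 0.25. SPO20 was nearest to SMA2 at 0.28, SPO14 to SSO1 at 0.13 and SPO71 to ADY3 at 0.20. SSP1 was the farthest from the others, its nearest member being SPO20 at 0.80, while 101 other genes were nearer. Genes outside the 10 were nearer than the nearest member for the others too. They numbered 1 for ADY3, 3 for SPO20, 4 for SMA2, 6 for SSO1, 7 for SPO19 and 9 for SPO14. For DON1, SPO71 and SPO73 they numbered 23, 29 and 35. These are descriptions over libraries that the genes share, with no test.

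Outside the 10 genes, the nearest profile to SPO20 was GIP1, a regulatory subunit of the phosphatase Glc7 that acts on septins in sporulation, at 0.15, followed by GAS2 at 0.26. SSP1 was nearest to YSW1 at 0.16 and to GAS4, a glucan elongation enzyme of the spore wall, at 0.17. DON1 was nearest to the cyclin gene CLB6 at 0.11 and the septin gene CDC10 at 0.14, and SPO73 to APC2 and CNM67 at 0.14 each. SPO19 was nearest to SPS2 at 0.10 and RRT12 at 0.12, SMA2 to BIL2 at 0.16 and LOH1 at 0.18, and SPO71 to RCI50 at 0.08 and SRC1 at 0.09. ADY3 was nearest to TGL4 and SMI1 at 0.10 each, SSO1 to PEX28 and YPF1 at 0.06 each, and SPO14 to KRE6 at 0.09 and SKG1 at 0.11.

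Genes that work beside these 10 were taken from 4 lists. Of 8 partners at the leading edge and the meiotic outer plaque, 7 were called higher in WT at 6 h in footprints and 7 in mRNA, with a median footprint change of 5.32. Over all genes tested, 20.1% were called higher in footprints and 16.4% in mRNA, and the median footprint change was -0.96. SPO74, an outer plaque component, went from 10.5 ± 1.47 to 1808 ± 6.21 RPKM in footprints (SD, n = 2), a log2 change of 7.31. IRC10, a leading edge protein, went from 2.49 ± 0.792 to 679 ± 54.6 RPKM, and SPO21, the outer plaque protein also called MPC70, from 11.2 ± 0.264 to 1059 ± 41.9 RPKM. IRC10 was at 2.85 RPKM on average in deletion footprints at 3 h. It thus passed the filter of 5 RPKM through its 6 h libraries, so a rise was favoured for it in advance. The gene not called in footprints was NUD1, which was called lower in mRNA but not after rescaling.

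Of 12 genes of membrane shaping, septins and closure, 11 rose and 1, ERV14, fell in WT footprints and in mRNA, with a median footprint change of 6.51. Of all genes tested, 20.1% were called higher and 63.3% lower in footprints, and 16.4% and 72.9% in mRNA. GIP1 went from 4.76 ± 0.524 to 2184 ± 80.8 RPKM in footprints (SD, n = 2) while its mRNA went from 53.7 ± 16.6 to 1991 ± 67.4 RPKM. At 3 h its footprints were thus under the filter level of 5 RPKM in WT, and at 7.32 RPKM on average in the deletion. SPR3, a sporulation septin, went from 23.7 ± 1.16 to 4156 ± 89.0 RPKM in footprints, and YSW1 from 33.7 ± 6.56 to 3067 ± 33.4 RPKM. These log2 changes were 8.57, 7.40 and 6.48, with limma adjusted p of 7.1e-09, 8e-09 and 2.3e-08.

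The 2 remaining lists hold machinery shared with vegetative secretion, and their counts are read beside those of all genes, 20.1% higher and 63.3% lower in WT footprints with a median of -0.96, and 16.4% higher and 72.9% lower in mRNA with a median of -1.38. Of 16 vesicle fusion genes, 3 were called higher and 7 lower in footprints, with a median of -0.07, and in mRNA 1 was higher and 11 lower, with a median of -0.47. Rescaling turned this split, to 10 higher and 1 lower in footprints and to 11 and 3 in mRNA. SNC2, the vesicle SNARE, was higher either way, its footprints going from 388 ± 5.79 to 1059 ± 16.8 RPKM (SD, n = 2). SEC1, which binds assembled SNAREs, was lower either way, from 20.9 ± 0.0848 to 5.97 ± 0.103 RPKM. The exocyst subunit gene SEC3 went from 26.1 ± 0.284 to 52.8 ± 1.45 RPKM.

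Of 11 genes of phosphoinositides, lipid transfer and Arf, 1 was higher and 8 were lower in WT footprints, with a median of -0.55, and 2 were higher and 9 lower in mRNA, with a median of -0.87. After rescaling these were 4 and 2 in footprints and 6 and 1 in mRNA. SEC14, the phosphatidylinositol transfer protein gene, was the gene called higher in footprints, from 313 ± 7.38 to 2289 ± 30.5 RPKM (SD, n = 2), a log2 change of 2.87. CDC31 and FRQ1 were lower, at -1.14 and -1.60, and of these FRQ1 was lower after rescaling as well. No gene of the 4 lists was called between the strains in footprints at 3 h or 6 h, or in mRNA.

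Markers of cell states moved between the times too, and their part in the changes of the 10 genes was not tested. The summed footprint level of 8 markers of meiotic cells in WT was 11209 to 11303 RPKM at 3 h. At 6 h it was 5428 to 5691 RPKM. Of the 8, 6 were called lower, where 20.1% of all genes were called higher and 63.3% lower. NDT80, the transcription factor of middle meiosis, was the marker of this list called higher, at 5.20 on the log2 scale. After rescaling by the median ratio, IME2 was called higher too, and 5 of the 8 were called lower. The 8 markers of dividing cells went from 8463 to 8665 RPKM to 22162 to 22940 RPKM, with CWP1, a cell wall protein gene, called higher and 4 of the 5 tested called lower. CWP1 alone carried that rise, at 456 and then 20476 RPKM on average, while the histone gene HTB1 went from 4056 to 888 RPKM. After rescaling, CWP1 was called higher and 3 of the 5 tested were called lower. The 8 haploid markers went from 127 to 135 RPKM to 1818 to 1881 RPKM, with STE3, STE4 and STE18 called higher and MFA2 and GPA1 lower. Most of that sum at 6 h was STE18, at 13.1 and then 1682 RPKM on average. After rescaling, MFA2 and GPA1 were no longer called lower, and STE3, STE4, STE18 and FUS3 were called higher. No marker was at 0 in every library of a group. Between the strains, the summed footprint levels overlapped for each of the 3 lists at 6 h, and at 3 h for the meiotic and haploid lists. The dividing list did not overlap in footprints at 3 h, at 7609 to 8051 RPKM in the deletion against 8463 to 8665 RPKM in WT. In mRNA at 6 h the haploid list was at 1201 to 1263 RPKM in the deletion against 1294 to 1328 RPKM in WT, and the other lists overlapped. In 3 h mRNA the deletion library was below both WT libraries for each list. For the meiotic list it was at 10762 against 10828 to 11329 RPKM. For dividing cells it was at 6546 against 6649 to 6717 RPKM, and for haploid cells at 331 against 334 to 348 RPKM.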

How the data were processed

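The authors deposited RPKM values (reads scaled to gene length and library depth) in 1 table, with 1 column per library and no pooling. Per the submitters' processing notes, CASAVA, bcl2fastq 2.17 and Bowtie2 were used, with no role given. The counting tool, whether it used strand, the genome build and the gene models were not given in the sources used here. Reads of overlapping or antisense genes may therefore be mixed. Each column carries a library name that the labels tie to a sample (0 unmatched). Gene names are those of the table.

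Whole reads were recovered from the RPKM steps within 0.02 of a read for 6679 of 6679 genes. The gene length they imply was 60 bases shorter than that of RefSeq (assembly R64) for 5074 of 5834 genes and 9 of the 10 members. Without molecular identifiers PCR copies are not independent, so the 95% exact Poisson intervals on reads cover counting error only.

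Genes averaging 5 RPKM or more in a kind of library entered limma 3.58.1 (R 4.3.3) as log2(RPKM + 1) (trend, group means, two-sided, Benjamini-Hochberg, threshold 0.05). That scale understates fold changes of low genes. Translation efficiency was the footprint change minus the mRNA change in 1 model over 15 libraries, without the library shown apart. There were 12 comparisons. The steps were tested on simulated data. The alternatives tried were no filter, a pseudocount of 5 RPKM, rescaling by the median ratio, no trend, limma-voom on recovered reads, a replicate block, putting back the library shown apart and leaving out each replicate. For translation efficiency, a pairing of footprints with mRNA by sample number took the place of the replicate block. The members, the lists and the tests were chosen with earlier results of these data known. The text names all 10 members everywhere, DBP1, SSO2 and SEC9, up to 3 genes of smallest p per list, and the 2 nearest profiles per member. Genes named besides these were chosen after their values were seen. The plots come from matplotlib 3.10.9 (Python 3.11.15).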

Additional observations from a re-analysis of the deposited data

Results flagged for a closer look

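The mRNA library labelled deletion 3 h replicate 2 was used in no comparison, and the signal of the prospore membrane genes in it was above that of the WT 3 h mRNA libraries for 10 of the 10 genes. The share of all genes above the WT 3 h libraries in it was not computed. The smallest excess over the higher WT 3 h library was 1.64 on the log2 scale, for SPO14, and the largest 5.17, for SMA2. Its SSO2 level was 31.6 RPKM, between the WT levels at 3 h and 6 h.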

How the results depend on the processing

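Over the 10 genes and 12 comparisons, 1210 values under 12 alternatives were set beside the values reported: 1161 stayed on their side of the threshold with the same direction where called, 43 lost a call, 6 gained one and 0 called values turned. Among values not called before or after, 42 changed sign. The rises in WT footprints, WT mRNA and deletion footprints kept 10 of 10 calls under each alternative run. For translation efficiency in WT, the 9 calls became 2 after rescaling, 0 with the library shown apart, and 0 to 10 when a replicate was left out. For mRNA in the deletion, the 10 calls became 0 with the library shown apart. For mRNA between the strains at 3 h, 0 calls became 0 to 2 when a replicate was left out. Without deletion replicate 4 no deletion mRNA library remains at 3 h, so comparisons that need it have no value. The cause of these changes was not tested. In the mRNA fits without WT replicate 3 or without WT replicate 4, the spread came from the deletion 6 h libraries alone.

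Over all genes, calls in translation efficiency in WT went from 1729 to 290 after rescaling, 41 with the library shown apart, 18 and 57 without WT replicates 3 and 4, and 2892 and 2898 without deletion replicates 2 and 4. Deletion mRNA calls between the times went from 4959 to 0 with the library shown apart. Between the strains, footprint calls at 3 h went from 2 to 77 without deletion replicate 4, and at 6 h from 3 to 11 without deletion replicate 4 and to 1 with limma-voom, without WT replicate 3 or without deletion replicate 2. The difference between the times went from 0 to 1 after rescaling or without WT replicate 3. The mRNA calls at 3 h went from 1 to 63 without WT replicate 3 and to 2 without deletion replicate 2. Those at 6 h went from 2 to 45 without deletion replicate 4, to 0 with the library shown apart, and to 1 with no filter, no trend, limma-voom, without WT replicate 3 or without deletion replicate 2. Efficiency calls between the strains were 0 to 2 under each alternative.

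The replicate numbers were not taken to pair samples: deviations of same-numbered samples correlated at -0.04 in WT footprints, 0.237 in deletion footprints and 0.053 in WT mRNA between the times, and at -0.339, -0.167 and 0.671 between footprints and mRNA in WT at 3 h, WT at 6 h and the deletion at 6 h. With footprints and mRNA paired by sample number, as in the ratios given above, 10 genes were called in the WT efficiency comparison in place of 9. SSP1 was the gene added (limma adjusted p 0.029). A crossed pairing, added after seeing the data, gave 10 as well, and 3175 calls over all genes. The footprint reads of SMA2 and SPO20 at 3 h limit what can be said of strain differences there.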
